A study of Mus musculus with 4 samples.

Results

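Foxd1, Tcf21, Meis1, Meis2, Tbx18, Nr2f1, Nr2f2, Twist1 and Prrx1 are 9 transcription factor genes of mesenchyme. Some of them are factors of the kidney stroma or of the mesenchyme around the ureter. The 9 were chosen by name, as every probe set that the platform annotation assigns to 1 of the 9 symbols alone. This gave 26 of the 45101 probe sets on the array and 9 of 18194 genes. They were measured in cells of chimeric mouse kidneys dissected on embryonic day 15.5 and sorted by fluorescence of green fluorescent protein (GFP), and RNA was read on 4 Affymetrix expression arrays covering the mouse genome. The GFP-positive cells, labelled Tfrc-/-, came from 3 to 5 embryonic stem cells with GFP and a deletion of Tfrc, the gene of transferrin receptor 1, injected per wildtype blastocyst. The GFP-negative cells were the wildtype host cells of chimeric kidneys. There were 2 arrays per group, called biological replicates by the labels, which do not say which embryos or how many were behind each. The labels do not name the promoter that drives GFP, the strain of either cell source, or whether more than 1 stem cell clone was used. Since no array holds GFP-positive cells with Tfrc intact, an effect of Tfrc and one of the origin of the cells (donor line or host) cannot be told apart.

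The stroma of the fetal kidney is the mesenchyme between nephrons and collecting ducts. Its cortical progenitors are marked by the forkhead factor Foxd1 and give rise to interstitial fibroblasts, pericytes, mesangial cells and renin cells, while mesenchyme expressing the T-box factor Tbx18 surrounds the ureter and forms its smooth muscle and fibroblasts. Tcf21 and Twist1 are basic helix-loop-helix factors that bind E-boxes with E-protein partners, Meis1 and Meis2 are homeodomain factors that act with PBX proteins, Nr2f1 and Nr2f2 are the COUP-TF orphan nuclear receptors, and Prrx1 is a paired-related homeodomain factor of limb and facial mesenchyme. Some of these factors also act in other kidney cells, such as Tcf21 in podocytes and Nr2f2 in venous endothelium.

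The promoters of Prrx1, Tbx18, Twist1 and Foxd1 are shown because these genes had the largest differences between the groups among the 9. Each line gives the 250 bases before the transcript start in RefSeq on GRCm38.p6, read 5′ to 3′ along the gene's strand. The windows are chr1:163313651-163313900 on the minus strand for Prrx1, chr9:87731261-87731510 on the minus strand for Tbx18, chr12:33957421-33957670 on the plus strand for Twist1 and chr13:98353995-98354244 on the plus strand for Foxd1. Capitals mark letters that match a core motif of the factor families of these genes on either strand.
Prrx1: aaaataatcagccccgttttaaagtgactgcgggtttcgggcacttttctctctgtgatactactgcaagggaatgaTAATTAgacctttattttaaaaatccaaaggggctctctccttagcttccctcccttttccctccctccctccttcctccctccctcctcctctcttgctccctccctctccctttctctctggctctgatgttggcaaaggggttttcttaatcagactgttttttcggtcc
Tbx18: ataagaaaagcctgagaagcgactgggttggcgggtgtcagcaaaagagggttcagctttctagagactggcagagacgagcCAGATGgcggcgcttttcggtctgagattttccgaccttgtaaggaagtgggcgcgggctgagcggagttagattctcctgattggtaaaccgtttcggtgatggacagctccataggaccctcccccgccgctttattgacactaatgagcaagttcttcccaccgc
Twist1: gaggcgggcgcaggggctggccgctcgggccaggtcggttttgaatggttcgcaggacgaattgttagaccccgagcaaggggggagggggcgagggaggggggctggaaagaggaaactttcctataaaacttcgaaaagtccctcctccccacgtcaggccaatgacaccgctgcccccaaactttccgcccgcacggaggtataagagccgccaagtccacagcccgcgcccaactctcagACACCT
Foxd1: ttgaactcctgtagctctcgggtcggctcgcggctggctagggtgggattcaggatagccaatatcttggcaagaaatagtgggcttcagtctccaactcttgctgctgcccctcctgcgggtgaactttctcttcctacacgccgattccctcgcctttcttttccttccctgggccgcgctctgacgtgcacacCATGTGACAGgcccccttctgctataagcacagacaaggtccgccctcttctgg
The motifs searched were the E-box CANNTG, the MEIS core TGACAG, the T-box core AGGTGT, the nuclear receptor core AGGTCA, the paired-type homeodomain core TAATTA and the forkhead core TGTTTAC. The Prrx1 window held TAATTA at bases 173 to 168 before the start, letters found in 4.84% of the 32851 promoter windows in the RefSeq table. Tbx18 held an E-box at bases 168 to 163, as did 66.2% of all windows. Twist1 held the T-box core, read on the other strand, in the last 6 bases, as did 11.8% of all windows. In Foxd1 an E-box at bases 54 to 49 overlapped a MEIS core at bases 50 to 45, a motif in 15.9% of all windows. The Meis1 and Nr2f2 windows held 1 E-box each, and the second of the windows for Nr2f1 held 2 E-boxes and the forkhead core, which 3.17% of all windows held. The windows of Tcf21 and Meis2 and the first of Nr2f1 held none of these motifs, and AGGTCA, in 14% of all windows, was in none of the 9 genes' windows. A match of letters is a description of the sequence and no evidence of binding.

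Values are linear intensities, 1 per probe set, after RMA, which corrects for background and brings all arrays to a common distribution. The median intensity was 17.5 and 18.8 on the labelled Tfrc-null arrays and 17.9 and 19.3 on the wildtype arrays. The control level of an array is the highest of its 27 probe sets for Bacillus subtilis sequences, 7.40 and 7.77 on the labelled Tfrc-null arrays and 7.18 and 9.08 on the wildtype arrays. The ratio of the 3′ to the 5′ actin control probe set was 5.89 and 7.21 on the labelled Tfrc-null arrays. On the wildtype arrays it was 5.51 and 6.49. Whether a weaker signal toward the 5′ end had a part in differences between probe sets of a gene was not tested. With 2 arrays per group, the number of arrays limits the precision. The brightest Tfrc probe set read 2509 and 3175 on the arrays labelled Tfrc-null, against 1759 and 2348 on the wildtype arrays, so it did not show the deletion. Another Tfrc probe set read 60.8 and 63.1 on the labelled Tfrc-null arrays, against 14.5 and 36.9 on the wildtype arrays, 2.68-fold higher without overlap. Of the 6 Tfrc probe sets, 5 had a higher mean on the labelled Tfrc-null arrays, and the other did not exceed the control level on any of the 4 arrays. The sources used here do not say which exons were deleted, and probes outside them check nothing. The group is called "labelled Tfrc-null", and each direction below rests on that label. Kidney genes were above the control level on all 4 arrays, among them Six2 at 93.1 and 80.6 on labelled Tfrc-null and 89.0 and 142 on wildtype arrays, and so were the mesenchymal collagen genes.

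All 9 genes had a higher mean log2 intensity on the labelled Tfrc-null arrays when each was represented by its brightest probe set, where 57.5% of all genes did. Both labelled Tfrc-null arrays lay above both wildtype arrays for 7 of the 9, against a background of 20.6% of all genes in that direction, and 0 of the 9 lay lower without overlap, against 14.3%. With each gene's most variable probe set in place of its brightest, 5 of the 9 lay higher without overlap and 1, Nr2f2, lower. The shares of all genes in this paragraph are for brightest probe sets, and none was taken for this choice. Prrx1 and Tbx18 also differed at least 2-fold, which with no overlap was seen upward in 1.15% of genes, and 0 of the 9 did so downward, against 1.51% of genes. The median log2 difference, labelled Tfrc-null minus wildtype, was 0.69 for the 9 genes and 0.04 for all 18194. The median of the 9 was 0.31 with the mean of all probe sets of a gene and 0.34 with the most variable probe set. With limma, 0 of the 9 genes passed an adjusted p of 0.05, as did 0% of all genes, while 5 of the 9 (Prrx1, Tbx18, Foxd1, Twist1 and Meis1) had an unadjusted p under 0.05, against 8.02% of all genes. The smallest two-sided p of an exact permutation test of 2 arrays against 2 is 0.333.

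**Figure D1:**
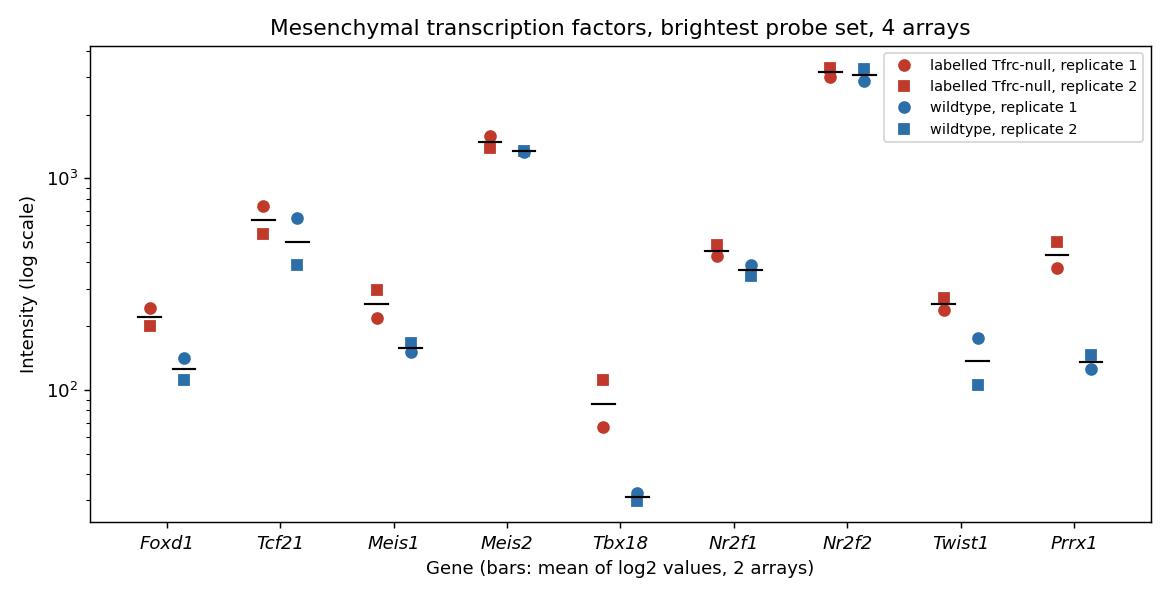
Intensity (log scale) of the brightest probe set of each of the 9 genes on the 4 arrays, labelled Tfrc-null in red and wildtype in blue, with replicate 1 as circles and replicate 2 as squares. Black bars are the means of 2 log2 values. The groups do not overlap for 7 genes, and they overlap for Tcf21 and Nr2f2.

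Among the factors of the renal stroma, Foxd1, the marker of cortical stromal progenitors, read 243 and 201 on the labelled Tfrc-null arrays, against 142 and 111 on the wildtype arrays. The groups did not overlap, and the lower labelled Tfrc-null array stood above the higher wildtype one. On the log2 scale they differed by 0.81 (SE 0.23, limma adjusted p = 0.425), a 1.76-fold higher mean, from means of 222 ± 30.1 and 127 ± 22.1 (SD, n = 2 each). It was nearly the same between the arrays numbered 1 (0.77) and those numbered 2 (0.85). Foxd1 has 1 probe set on the array, so no second one could be set beside it.

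Tcf21, which acts in stroma and podocytes, read 743 and 543 on the labelled Tfrc-null arrays, against 647 and 389 on the wildtype arrays. The groups overlapped, and in each group the array numbered 1 was the brighter one. The log2 difference was 0.34, with a 95% interval from -0.47 to 1.15 (limma adjusted p = 0.914). Between the arrays numbered 1 it was 0.20, and between those numbered 2 it was 0.48. Without wildtype replicate 2 the log2 difference was -0.03, and without wildtype replicate 1 it was 0.71. The second probe set of Tcf21, 1458887_at, was above the control level only on labelled Tfrc-null replicate 2, where it read 9.36.

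Meis1, a homeodomain factor of stromal and other mesenchymal progenitors, had 3 probe sets, and they differed among themselves. The brightest, 1450992_a_at, read 219 and 297 on the labelled Tfrc-null arrays, against 150.5 and 166 on the wildtype arrays, with no overlap and a log2 difference of 0.69 (SE 0.23, limma adjusted p = 0.520). The groups overlapped for both others. Probe set 1443260_at read 73.8 and 65.4 against 89.4 and 61.1, and 1459423_at read 32.5 and 42.8 against 23.3 and 49.7, with log2 differences of -0.09 and 0.13. A suffix _a_at marks probes shared by several transcripts of a gene, and the sources used here do not say which Meis1 transcripts each probe set reads. The higher Meis1 signal was therefore seen with 1 of 3 probe sets. With the mean of the probe sets the difference was 0.25.

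Its paralogue Meis2 read 1587 and 1387 on the labelled Tfrc-null arrays, against 1329.7 and 1351 on the wildtype arrays, by the brightest of 4 probe sets. The groups did not overlap, but they were only 1.11-fold apart, with a log2 difference of 0.15 and a 95% interval from -0.33 to 0.62 (limma adjusted p = 0.957). Without labelled Tfrc-null replicate 1 the difference was 0.05, and without labelled Tfrc-null replicate 2 it was 0.24. Probe set 1457632_s_at, whose suffix marks probes that can bind several genes, read 1149 and 1176 against 769.9 and 1034, again without overlap, with a log2 difference of 0.38 that was 0.17 without wildtype replicate 1 and 0.59 without wildtype replicate 2. The other two, 1440091_at and 1447861_x_at, overlapped between the groups with log2 differences of -0.18 and -0.16. The 4 probe sets thus fell on both sides of 0, between -0.18 and 0.38.

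Tbx18, the T-box factor of the ureteral mesenchyme, stood higher on the labelled Tfrc-null arrays by both of its probe sets. The brighter one, 1429974_at, read 66.5 and 111 on the labelled Tfrc-null arrays, against 32.6 and 30.0 on the wildtype arrays. The wildtype arrays lay close together and both below the labelled Tfrc-null ones, which differed more from each other. On the log2 scale they differed by 1.46 (SE 0.29, limma adjusted p = 0.272), a 2.75-fold higher mean with a 95% interval of 0.72 to 2.20 on the log2 scale. Probe set 1449871_at read 72.9 and 84.5, against 26.4 and 19.2, a log2 difference of 1.80 (SE 0.24, limma adjusted p over all probe sets = 0.173). Between the arrays numbered 1 and between those numbered 2, the differences were 1.03 and 1.89 for the first probe set and 1.46 and 2.14 for the second.

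The COUP-TF receptors are made widely in mesenchyme, and Nr2f2 had the smallest difference of the 9 genes. Nr2f1 read 429 and 483 on the labelled Tfrc-null arrays, against 389 and 346 on the wildtype arrays, by its only probe set. The groups did not overlap and were 1.24-fold apart, with a log2 difference of 0.31 and a 95% interval from -0.18 to 0.80 (limma adjusted p = 0.811). Nr2f2 read 3021 and 3335, against 2882 and 3291, which overlapped. Its log2 difference was 0.04, with a 95% interval from -0.44 to 0.53 (limma adjusted p = 1). A difference of over 1 on the log2 scale lies outside the interval of this probe set, the brightest of Nr2f2.

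Of the 6 Nr2f2 probe sets, all above the control level on 4 arrays, 5 had log2 differences between -0.02 and 0.14. The sixth, 1444229_at, ran the other way, with 22.7 and 30.8 on the labelled Tfrc-null arrays against 39.2 and 40.8 on the wildtype arrays. These groups did not overlap, and they differed by -0.59 on the log2 scale (SE 0.22, limma adjusted p over all probe sets = 0.675), or by -0.37 without labelled Tfrc-null replicate 1. The sources used here do not say which stretch of Nr2f2 this dim probe set reads.

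Twist1, a factor of mesenchymal identity and of epithelial to mesenchymal transition, read 237 and 273 on the labelled Tfrc-null arrays, against 176 and 105 on the wildtype arrays. The groups did not overlap, and the wildtype arrays were further apart than the labelled Tfrc-null arrays. On the log2 scale they differed by 0.90 (SE 0.30, limma adjusted p = 0.518), a 1.87-fold higher mean. It was 0.43 between the arrays numbered 1 and 1.37 between those numbered 2, and without wildtype replicate 2 it was 0.53.

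Prrx1 had the largest difference of the 9 genes and ranked 28th upward of 18194 by moderated t. Its brightest probe set, 1425528_at, read 377 and 498 on the labelled Tfrc-null arrays, against 125 and 146 on the wildtype arrays. The groups lay far apart relative to the gap between arrays of a group. Means were 437 ± 85.6 and 136 ± 14.9 (SD, n = 2 each), a 3.21-fold higher level with a log2 difference of 1.68 (SE 0.23, 95% interval 1.11 to 2.26, limma adjusted p = 0.148). Between the arrays numbered 1 the difference was 1.59, and between those numbered 2 it was 1.77.

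The other Prrx1 probe sets above the control level on all 4 arrays gave like values. Probe set 1432129_a_at read 58.0 and 60.2 on the labelled Tfrc-null arrays, against 28.0 and 13.6 on the wildtype arrays, and 1439774_at read 40.7 and 54.7, against 16.4 and 17.9. Their log2 differences were 1.60 and 1.46, with no overlap for either. Probe set 1425526_a_at read 20.8 and 31.4, against 10.6 and 8.86, where wildtype replicate 2 did not exceed its control level, and its log2 difference was 1.40. Near the control level, 1425527_at read 8.73 and 8.71 against 7.33 and 6.24. Probe set 1458004_at did not exceed the control level on any of the 4 arrays, so no difference is given for it. Prrx1 thus stood at least 2-fold higher without overlap in 4 of 6 probe sets. With the mean of all 6, the dim ones included, its log2 difference was 1.04.

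**Figure D2:**
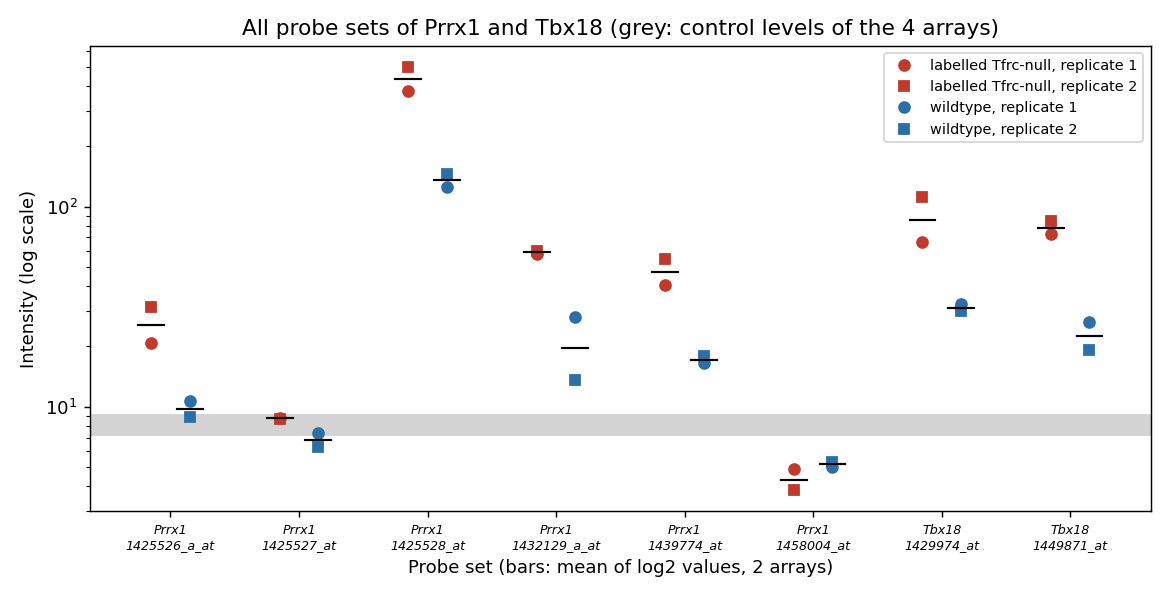
Intensity (log scale) of the 6 Prrx1 and 2 Tbx18 probe sets on the 4 arrays, labelled Tfrc-null in red and wildtype in blue. Black bars are means of 2 log2 values and the grey band spans the control levels of the 4 arrays, 7.18 to 9.08. Both Tbx18 probe sets and the 4 Prrx1 probe sets that reach above the band in the labelled Tfrc-null cells by the widest margin separate the groups.

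Over the 26 probe sets, 20 had a higher mean on the labelled Tfrc-null arrays, where 54% of all probe sets did. Of the 26, 14 lay higher on the labelled Tfrc-null arrays without overlap, where 18.3% of all probe sets did, and 2 lay lower, where 15.2% did. The 2 were 1444229_at of Nr2f2 and 1458004_at of Prrx1, which did not exceed the control level on any array. The 14 include 1425527_at of Prrx1, which was near the control level. At least a 2-fold difference without overlap was seen upward for 6 probe sets, all of Prrx1 and Tbx18, against 0.823% of all probe sets, and downward for 0, against 1.56%. The median log2 difference was 0.24, against 0.02 for all 45101 probe sets. With limma, 0 of the 26 passed an adjusted p of 0.05 over all probe sets (0% of all), and 10 had an unadjusted p under 0.05, against 7.23% of all. Probe sets of one gene share a transcript and are not independent.

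**Figure D3:**
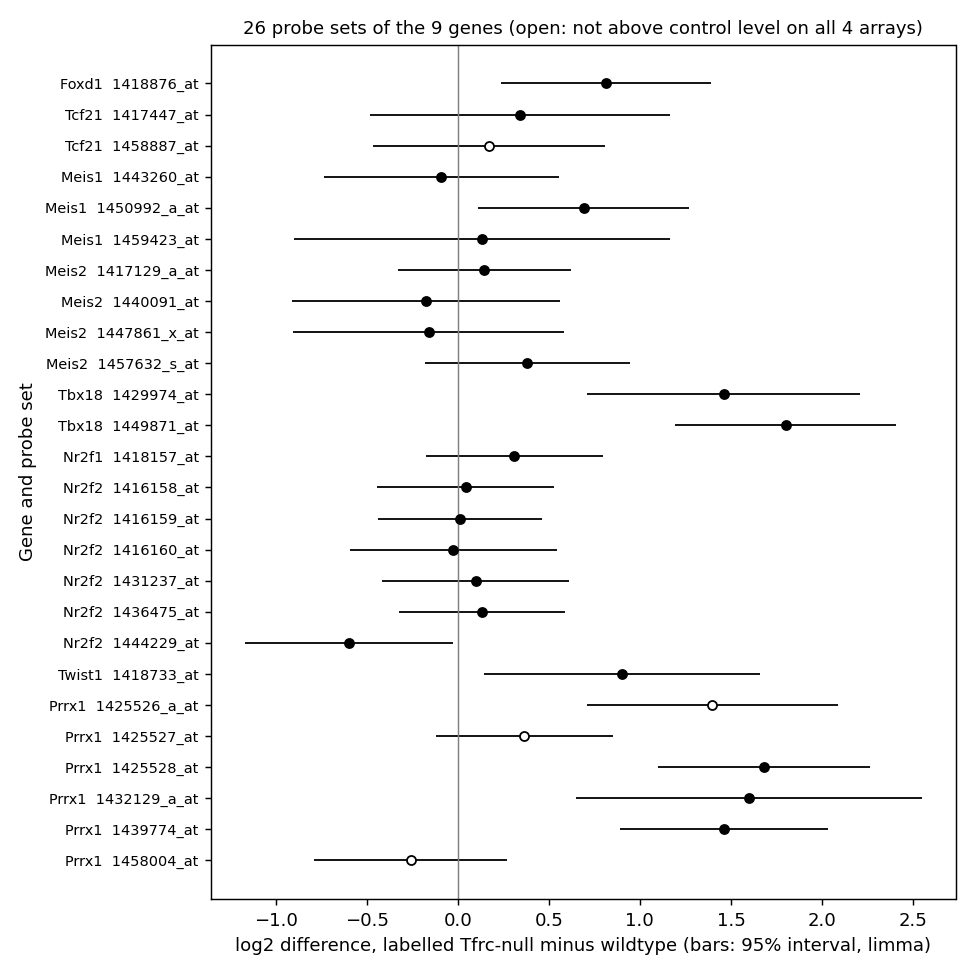
Log2 difference (labelled Tfrc-null minus wildtype) with its 95% interval from limma for each of the 26 probe sets, grouped by gene. Filled points are above the control level on all 4 arrays. The Prrx1 and Tbx18 points above the control level lie between 1.46 and 1.80, and 5 of 6 Nr2f2 points lie between -0.02 and 0.14.

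The gene with the profile closest to Prrx1 over the 4 arrays was Abhd1, at a Euclidean distance of 0.0590 between log2 profiles that were each centred on their own mean. Rbm45, at 0.169, and Hddc3, at 0.212, followed. Abhd1 read 47.4 and 60.3 on the labelled Tfrc-null arrays against 15.4 and 18.7 on the wildtype arrays. With 4 arrays and 18194 genes, close profiles are a description of these arrays only.

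Partners and paralogues of the 9 factors, such as PBX proteins, TALE repressors, E-proteins, ID proteins and T-box relatives, were spread around the median of all genes. Of 29 measured genes in a list of 30, 17 had a higher mean, where 57.5% of all genes did. Without overlap 7 lay higher and 1 lower, where 20.6% and 14.3% of all genes did. The median log2 difference was 0.10, and with 1 array left out it ranged from -0.08 without wildtype replicate 2 to 0.20 without wildtype replicate 1. The nearest paralogues of Twist1 and Prrx1 stood higher as well. Twist2 read 319 and 330 on the labelled Tfrc-null arrays, against 151 and 113 on the wildtype arrays (log2 difference 1.31, SE 0.22, limma adjusted p = 0.212). Prrx2 read 45.3 and 55.4, against 34.0 and 24.7 (0.79, SE 0.24, limma adjusted p = 0.491). Zfpm2, a cofactor of GATA factors and of COUP-TF receptors, read 211 and 294, against 109 and 115 (1.15, SE 0.23, limma adjusted p = 0.280). Its log2 difference was 0.71 with the mean of all probe sets. Tbx15 read 11.7 and 8.61 against 6.56 and 7.62, with neither wildtype array above its control level. Some other paralogues had a lower mean. Foxd2, Meis3 and Tbx3 had log2 differences of -0.17, -0.12 and -0.45, all with overlap. Nr2f6 stood at -0.14 and was the gene of this list that lay lower without overlap.

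Other mesenchymal transcription factors had 25 of 27 members with a higher mean (57.5% of all genes) and a median log2 difference of 0.34. Without overlap 15 lay higher and 1 lower, where 20.6% and 14.3% of all genes did. Ebf3, a helix-loop-helix factor, read 417 and 449 on the labelled Tfrc-null arrays, against 159 and 213 on the wildtype arrays (log2 difference 1.23, SE 0.22, limma adjusted p = 0.224). Snai1, a zinc finger repressor of E-cadherin, read 62.6 and 106, against 23.1 and 32.8 (1.56, SE 0.33, limma adjusted p = 0.297). The forkhead factor Foxp2 had a log2 difference of 1.09 without overlap, or 0.80 with the mean of all probe sets. Ebf2 was dim, with 19.9 and 18.7 on the labelled Tfrc-null arrays against 8.56 and 11.7 on the wildtype arrays, without overlap. Its log2 difference was 0.95, or 0.36 with the mean of all probe sets and 0.44 with a pseudocount of 16. Its paralogue Ebf1 overlapped between the groups, with a log2 difference of 0.13. Over all genes 0 of the 27 passed, and 6 had an unadjusted p under 0.05, against 8.02% of all genes.

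Genes of cortical and medullary stroma, which include retinoid signalling and matrix genes, had 16 of 20 members with a higher mean and a median of 0.43, and 12 lay higher without overlap, where 20.6% of all genes did. Dlk1, a membrane protein related to Notch ligands, had a log2 difference of 2.26, or 1.65 with the mean of all probe sets. The proteoglycan gene Lum had one of 1.49 and the matricellular gene Postn of 1.59. Cdkn1c, an imprinted gene that restrains the cell cycle, stood lower, at -2.03. Matrix and adhesion genes of mesenchyme had 12 of 12 members with a higher mean, and 9 lay higher without overlap, against the same 20.6%. Their median was 0.42, and 0.23 without wildtype replicate 2. These differences were smaller than those of Prrx1 and Tbx18, from 0.02 for Cdh2 to 0.79 for Col5a1, which read 1037 and 965 on the labelled Tfrc-null arrays against 607 and 553 on the wildtype arrays. The collagen genes Col6a1 and Col1a2 and the collagen cross-linking enzyme gene Lox had log2 differences of 0.53, 0.56 and 0.42, and that of Col1a2 was 0.35 without wildtype replicate 2. With limma, 0 members of either list passed over all genes, and 8 of the 20 and 1 of the 12 had an unadjusted p under 0.05, against 8.02% of all genes.

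Genes of the ureteral mesenchyme, where Tbx18 acts, lay on both sides of 0. Of 13 measured genes of the ureteral mesenchyme and smooth muscle, 6 had a higher and 7 a lower mean, and the median was -0.01. Without overlap 3 were higher and 2 lower, close to the 20.6% and 14.3% of all genes. Smooth muscle actin, Acta2, read 2199 and 2133 on the labelled Tfrc-null arrays, against 2001 and 2382 on the wildtype arrays, which overlapped. Sox9, a factor of ureteral mesenchyme and also of the ureteric epithelium, had a log2 difference of -0.70 and the smooth muscle myosin Myh11 of -0.63, both lower without overlap. Sox9 was at -0.45 without labelled Tfrc-null replicate 1, and Myh11 at -0.38 without wildtype replicate 2. The muscle filament gene Des stood at 0.63 and the hedgehog-binding protein gene Hhip at 0.43, both higher without overlap. Des was at 0.39 without labelled Tfrc-null replicate 1, and Hhip at 0.20 without wildtype replicate 2. With the mean of all probe sets Des was at 0.34 and Hhip at 0.32. The median of the list reached 0.21 when labelled Tfrc-null replicate 1 was left out, and -0.09 when wildtype replicate 1 was. Of pericyte, mesangial and renin cell genes, 9 of 12 had a higher mean, with a median of 0.11, or 0.26 without wildtype replicate 1. Without overlap 4 were higher and 1 lower, against the same shares of all genes. The lower one was Rgs5, a pericyte regulator of G-protein signalling, which read 402 and 343 on the labelled Tfrc-null arrays against 1207 and 750 on the wildtype arrays (log2 difference -1.36, limma adjusted p = 0.296). Kcnj8, Gucy1a1 and Angpt1 had log2 differences of 0.58, 0.36 and 0.44. Without wildtype replicate 2 those of Kcnj8 and Angpt1 were 0.27 and 0.15, and without wildtype replicate 1 that of Gucy1a1 was 0.22. Over all genes 0 members of either list passed with limma, and 2 of the 13 and 1 of the 12 had an unadjusted p under 0.05, against 8.02% of all genes.

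**Figure D4:**
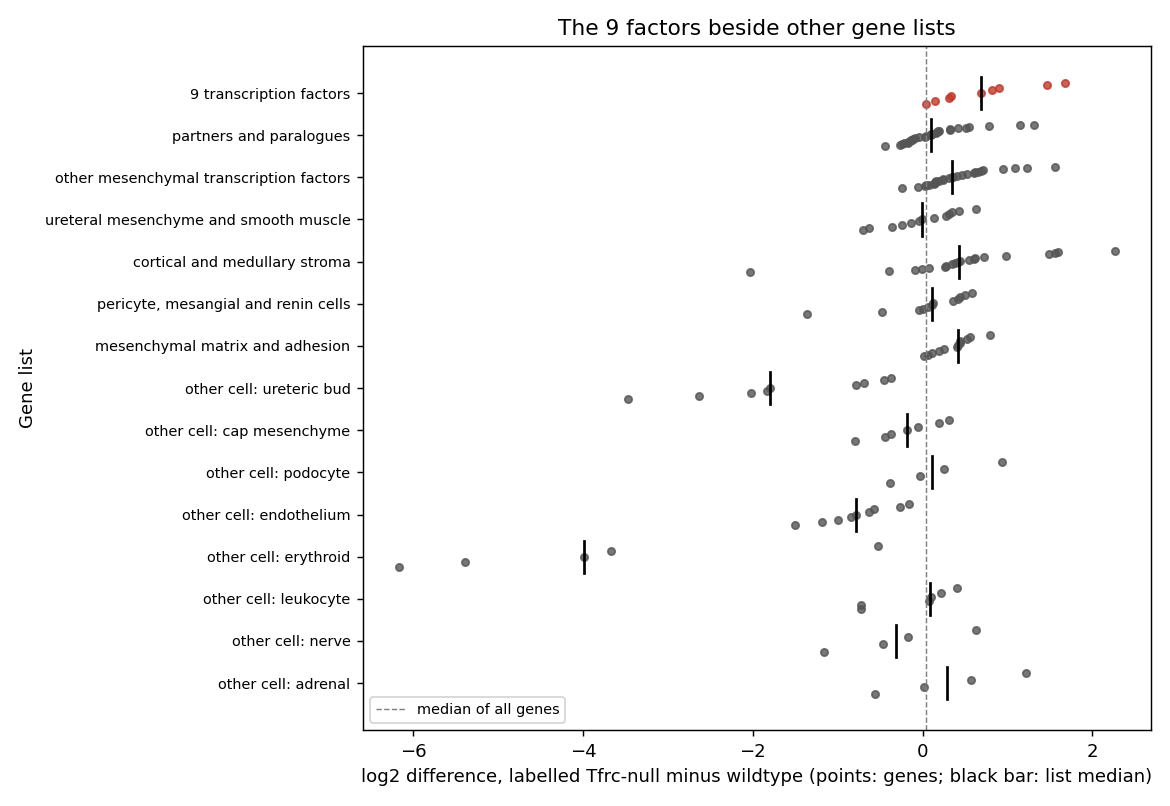
Log2 difference (labelled Tfrc-null minus wildtype) of each gene in the 9 factors, 6 companion lists and 8 lists of other cells. Points are genes, black bars are list medians and the dashed line is the median of all genes, 0.04. The 9 factors have a median of 0.69, and the ureteric bud, endothelial and erythroid lists have medians of -1.80, -0.78 and -3.99.

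Markers of other kidney cells differed between the same arrays. Of all 18194 genes, 10468 had a higher mean and 7723 a lower one, and for 11845 the groups overlapped. In bulk samples, fewer cells of a type and less RNA per cell cannot be told apart. Ureteric bud markers had a lower mean in 9 of 9 measured genes. Of these, 7 lay lower without overlap, where 14.3% of all genes did. Their summed intensity was 2807 and 3535 on the labelled Tfrc-null arrays against 7098 and 7562 on the wildtype arrays. Ret had a log2 difference of -3.47 and Gata3 of -1.80. Endothelial markers were lower in 9 of 9, with sums of 2550.2 and 1973 against 3672 and 3131, and with Sox17 at -1.51 and Kdr at -0.996. Erythroid markers had a lower mean in 5 of 5, all without overlap, with sums of 76.2 and 93.7 against 1358 and 4121. Alas2 stood at -5.40 and Slc4a1 at -3.99. Sums for leukocytes were 3142 and 2735 against 3053 and 3065, and 4 of 6 markers had a higher mean, with a median log2 difference of 0.09. Ptprc and Lyz2 stood at -0.73 and -0.72, both lower without overlap, Csf1r at 0.22, higher without overlap, and Itgam was not above the control level on any of the 4 arrays. Cap mesenchyme sums were 1548 and 1238 against 1502 and 1697, with 5 of 7 markers lower in mean, 6 of 7 overlapping and a median of -0.18. Cited1 stood at -0.79, or -0.32 without labelled Tfrc-null replicate 2, Six2 at -0.38, or -0.04 without wildtype replicate 2, and Osr1 at 0.31. Podocyte sums were 2562 and 2179 against 2722 and 2467, with 2 of 4 markers higher in mean. Nphs1 stood at 0.93, or 0.60 without labelled Tfrc-null replicate 1, and Wt1 at -0.39, or -0.05 without wildtype replicate 2. Nerve sums were 82.6 and 175 against 141 and 212, with 3 of 4 markers lower in mean and 2 of 4 overlapping. Elavl4 stood at -1.16, Sox10 at 0.63 with overlap, and Tubb3 at -0.46, or -0.26 without labelled Tfrc-null replicate 1, where it did not exceed the control level. Adrenal sums were 132 and 136 against 80.4 and 84.5, with 3 of 4 markers higher in mean. Mc2r stood at 1.22, higher without overlap, and read 80.3 and 78.9 against 40.7 and 28.9. Star at 0.57 and Cyp11a1 at 0.01 overlapped between the groups. Nr5a1 stood at -0.56, lower without overlap, and was not above the control level on either labelled Tfrc-null array. With limma, 0 genes of these lists passed an adjusted p of 0.05, as did 0% of all genes. The part of these cell types in the values of the 9 factors was not tested.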

How the data were processed

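Expression was measured on 4 Affymetrix arrays, 2 of GFP-positive cells labelled Tfrc-null and 2 of GFP-negative wildtype cells, from 50 ng of total RNA per sample, amplified and biotin-labelled per the labels' protocols. The deposited values are intensities on a linear scale, and the submitters' processing notes name only RMA. Version and the step back to a linear scale are not given in the sources used here. The normalization would remove a difference shared by most genes.

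Intensities were taken to log2 with no pseudocount, since the deposited file has none at 0. Of 45101 probe sets, 34958 had 1 gene symbol in the platform annotation, 932 several and 9211 none. Symbols were updated by Entrez identifier through RefSeq (GRCm38.p6), which held 18033 of 18194 genes. A gene was represented by its brightest probe set by mean log2. Groups were compared with limma 3.58.1 (R 4.3.3) through lmFit and eBayes without a block, p-values were adjusted by the Benjamini-Hochberg method over all genes or probe sets with a threshold of 0.05, and the code was checked on simulated data. P-values measure the spread between these samples, which may be technical. "No overlap" means that the lowest array of one group exceeds the highest of the other.

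Named genes were every member, up to 4 genes with the smallest p of each companion list, up to 2 of each list of other cells, and the 3 genes closest in profile to the member with the largest difference. Acta2, Cdh2, Itgam, Csf1r, Osr1, Sox10, Foxd2, Meis3, Tbx3, Nr2f6, Ebf1, Star, Cyp11a1 and the Foxd1, Tbx18, Twist1 and Prrx1 promoters were picked after values were seen. The 9 members and all lists were chosen with earlier results of these data known. Promoter windows came from RefSeq and matched 9 of 9 members. The alternatives tried were a replicate block, other ways to join probe sets, other scalings, a pseudocount of 16, filters on low values, an intensity trend and leaving out each array.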

Additional observations from a re-analysis of the deposited data

How the results depend on the processing

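No setting brought a member past the adjusted threshold, over genes or over probe sets. Over genes, the lowest adjusted p of a member was 0.0889, for Prrx1 with arrays centred on their median, and the highest for Prrx1 was 0.937, without labelled Tfrc-null replicate 2. With limma and the replicate number as a block, 0 members passed (2 of all genes, against 0 without it) and the adjusted p was 0.0949 for Prrx1, 0.162 for Tbx18 and 0.158 for Foxd1. Arrays of the same number differed alike between the groups (r = 0.512 across genes, which are not independent replicates), but the labels do not say that a number marks a shared litter or day. The median difference of the 9 genes was 0.31 with the mean of all probe sets and 0.34 with the most variable probe set, where 5 genes lay higher and 1 lower without overlap, and 0.53 to 0.71 when 1 array was left out. Genes at least 2-fold higher without overlap numbered 1 among genes above the median level, because Tbx18 is dimmer than that (6 of the 8 left were higher without overlap), and 2 to 3 with 1 array left out. Genes higher without overlap numbered 8 in each case with 1 array left out, since 1 array separates more easily. Shares of all genes were not taken for these other settings. The shares given for the main fit are therefore no background for these counts.

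Among the 9 genes, signs turned for Tcf21, Meis2 and Nr2f2. Meis2 was at -0.16 with the most variable probe set, and Nr2f2 at -0.055 with the mean of all probe sets and -0.59 with the most variable one. With 1 array left out, Tcf21 (gene and probe set 1417447_at) ranged from -0.027 to 0.71 and Nr2f2 from -0.052 to 0.14. Over probe sets the ranges were -0.11 to 0.45 for 1458887_at of Tcf21, -0.36 to 0.18 for 1443260_at and -0.41 to 0.68 for 1459423_at of Meis1, -0.50 to 0.15 for 1440091_at and -0.52 to 0.20 for 1447861_x_at of Meis2, and -0.052 to 0.14 for 1416158_at, -0.021 to 0.044 for 1416159_at, -0.24 to 0.20 for 1416160_at and -0.039 to 0.24 for 1431237_at of Nr2f2. Probe set 1416159_at was at -0.0103 after quantile normalization and 1416160_at at 0.0087 with arrays centred on their median. The causes were not tested. Several Prrx1 and Tcf21 probe sets near the control level carry little signal over background.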
